A study of Rattus norvegicus with 4 samples.

Results

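AMP-activated protein kinase (AMPK) is described here in the carotid body (CB) of neonatal and adult rats, through the genes of its catalytic, scaffold and regulatory subunits and of Lkb1 (Stk11), the kinase that activates it. Members were chosen by gene symbol: Prkaa1, Prkaa2, Prkab1, Prkab2, Prkag1, Prkag2, Prkag3 and Stk11. Of these 8 genes, 7 had a row among the 32883 genes of the deposited table, and Prkag1 was not analysed here, so the account of the regulatory subunits is incomplete. Neonates were Sprague-Dawley pups of postnatal day 5 and adults were Sprague-Dawley rats of postnatal day 21, untreated and of both sexes, with 2 libraries per age. Each library was a pool, of CBs from 6 pups or from 3 adults according to the sample labels, and the study's text gives other numbers of animals. Whole CBs were sequenced, which hold glomus cells, glia, vessels and connective tissue, so that fewer cells of a type and less RNA per cell cannot be told apart in any level given.

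AMPK is a heterotrimer. An alpha subunit (Prkaa1 or Prkaa2) carries the kinase domain, a beta subunit (Prkab1 or Prkab2) holds the complex together and binds glycogen, and a gamma subunit (Prkag1, Prkag2 or Prkag3) binds AMP, ADP and ATP. When ATP runs low, AMP binding to gamma favours phosphorylation of the activation loop of alpha by Lkb1, and the active kinase turns on ATP production and turns off lipid, sterol and protein synthesis. In the CB, whose glomus cells depolarize and release transmitter when blood oxygen falls, AMPK has been proposed as a link between mitochondria and membrane excitability, and that role is debated.

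Total counts were between 36286191 and 39476110 per library, and 3 counts, taken as the floor of detection, corresponded to between 0.0760 and 0.0827 CPM, a gene's counts divided by the library total and multiplied by 1000000. This floor and the counting intervals below cover counting error only. Mitochondrially encoded genes held 18.7% and 15.6% of neonatal counts and 9.06% and 9.08% of adult counts. Scaling by the trimmed mean of M-values (TMM) used factors from 0.902 to 1.10 and raised neonatal levels against adult ones. With library size alone the median difference over all genes moved from -0.0029 to -0.25 on the log2 scale. The parathyroid hormone gene Pth was present in both neonatal libraries (1595 and 194 CPM) and at 0 counts in both adult libraries. Neonate replicate 1 stands apart by it. Without that library Prkab1 was at 0.75, Prkab2 at -1.06 and Prkaa2 at -2.67 in the log2 fold changes defined next. Neonate replicate 2 held Pth as well, so leaving out replicate 1 does not part Pth from age. Glomus cell genes were abundant at both ages, with Th (tyrosine hydroxylase) at 917 and 781 CPM in neonates and at 1517 and 1242 CPM in adults.

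Levels are given as CPM from the raw counts, and differences between ages as log2 fold changes of neonate over adult from edgeR's quasi-likelihood test after TMM scaling, with Benjamini-Hochberg adjustment over the 13843 genes tested. A negative value means a lower level in neonates. A gene was called at an adjusted p under 0.05. By this rule 62.3% of all genes tested were called, 31.2% higher and 31.1% lower in neonates, so that a call by itself is common in these libraries. With at least 2-fold as well, 7.68% were called higher and 13.2% lower.

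Of the 7 members with a row, 6 passed the filter of 1 CPM in 2 libraries, 5 of them at both ages and Prkaa2 in the adult libraries alone, and Prkag3 did not pass. Prkab1 was higher in neonates, Prkab2 and Prkaa2 were higher in adults, and Prkaa1, Prkag2 and Stk11 were not called. The 3 called among 6 tested are 50.0%, which is no more than the 62.3% among all genes. The beta subunits thus differed in opposite directions between ages.

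**Figure D1:**
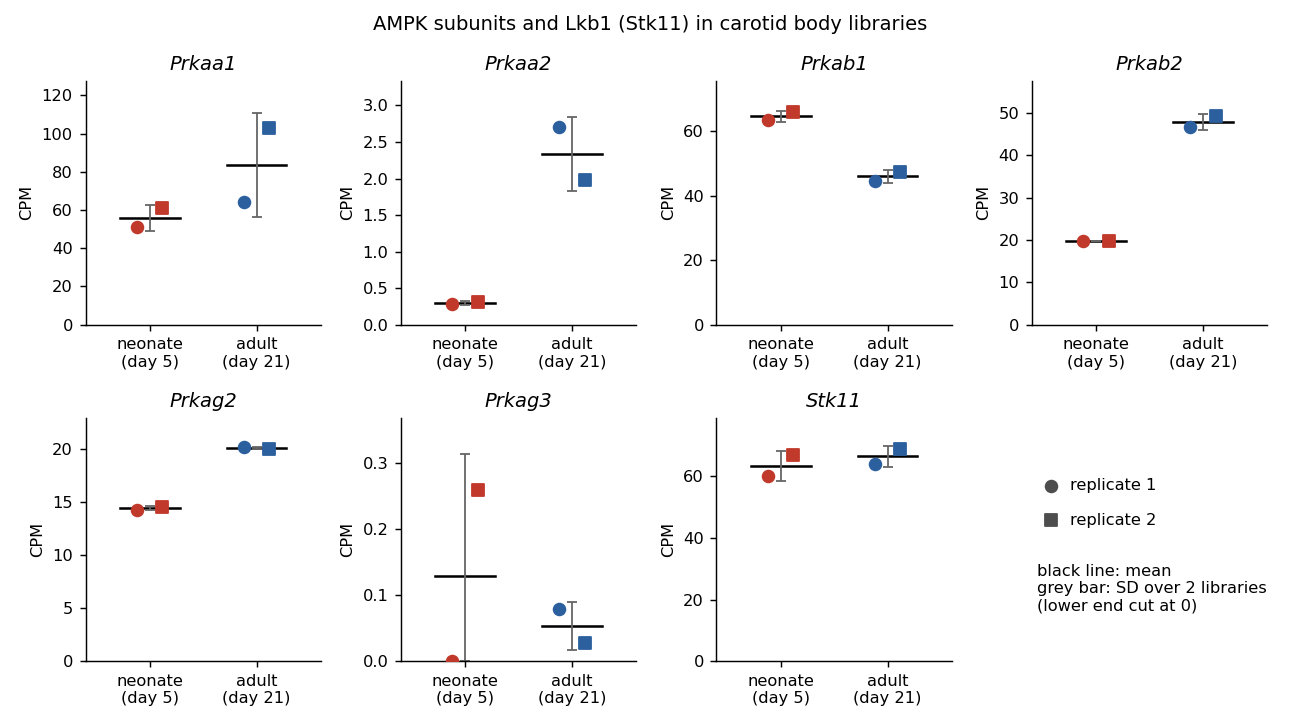
CPM of each member with a row in the 4 libraries (circles, replicate 1; squares, replicate 2; line, mean; bar, SD, cut at 0), neonates in red and adults in blue, on axes that start at 0. Prkab1 lies at 63.5 and 65.9 CPM in neonates against 44.7 and 47.4 in adults and Prkab2 runs the other way, while adult replicate 2 stands apart for Prkaa1 at 102.8 CPM.

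Prkab1 (ENSRNOG00000001142), the beta 1 scaffold, had 63.5 and 65.9 CPM in neonates and 44.7 and 47.4 CPM in adults. Both neonatal libraries lay above both adult libraries, and the ages were likewise apart in 83.1% of all genes tested from raw CPM and in 83% after TMM scaling. Its log2 fold change was 0.74 (standard error 0.088, adjusted p = 0.00012 by edgeR), or 1.67-fold higher in neonates with a 95% interval of 1.45 to 1.91. A larger fold change toward neonates was found in 13.7% of the genes tested.

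Prkab2 (ENSRNOG00000018166), the beta 2 scaffold that is abundant in skeletal muscle and heart, had 19.7 CPM in each neonatal library, and 46.7 and 49.4 CPM in the adult libraries. The neonatal values were almost equal and the adult ones lay far above them. Its log2 fold change was -1.04 (standard error 0.093, adjusted p = 2.8e-05 by edgeR), or 2.05-fold higher in adults with a 95% interval of 1.77 to 2.38. It is one of 2 members past 2-fold, and it sits at the border: without neonate replicate 2 the log2 fold change was -0.99.

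Because library scaling cancels in a ratio of genes within a library, the beta subunits were also compared that way. For each read of Prkab1 there were 0.311 and 0.299 reads of Prkab2 in the neonatal libraries, and 1.05 and 1.04 in the adult libraries. Within each age the ratio hardly differed between libraries, and between ages it differed by 3.42-fold (log2 difference -1.77, with SDs of 0.040 in neonates and 0.0037 in adults). Prkab2 took 23.7% and 23.0% of the beta subunit reads in neonates and 51.1% and 51.0% in adults, with 95% Wilson intervals of 22.3 to 25.2%, 21.6 to 24.5%, 49.4 to 52.8% and 49.4 to 52.7%. Reads were not divided by transcript length, so equal reads do not mean equal transcript numbers. Length cancels in the difference between ages if each gene has the same transcripts at both ages, which was not tested. An exact two-sided permutation test of 2 libraries against 2 cannot go below 0.333, the p it gave for this ratio and for the other ratios tested (3 in all, adjusted p = 0.333 by permutation).

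The summed level of Prkab1 and Prkab2 moved far less than either gene. It was 83.2 and 85.5 CPM in neonates and 91.3 and 96.8 CPM in adults from the raw counts. After TMM scaling it was 92.3 and 91.5 CPM in neonates and 84.5 and 88.2 CPM in adults, so the direction of the sum depends on the scaling.

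**Figure D2:**
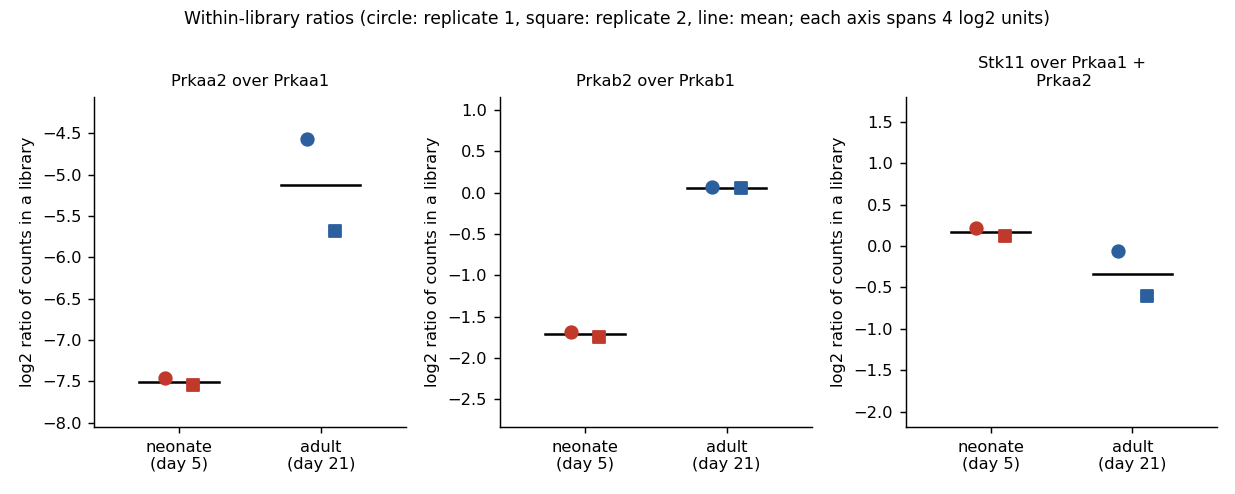
Log2 ratios of counts within each library for Prkaa2 over Prkaa1, Prkab2 over Prkab1 and Stk11 over both catalytic subunits (circles, replicate 1; squares, replicate 2; lines, means), with 0.5 counts added to each and axes of equal span. The Prkab2 ratio is tight within an age and parted by 1.77 between ages, while the adult libraries differ from each other in both ratios that contain Prkaa1.

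Prkaa1 (ENSRNOG00000012799), the alpha 1 catalytic subunit found in most tissues, had 51.2 and 60.8 CPM in neonates, 64.2 CPM in adult replicate 1 and 102.8 CPM in adult replicate 2. The adult libraries differed from each other more than adult replicate 1 differed from either neonatal library, and after TMM scaling the ages overlapped. Its log2 fold change was -0.33 (standard error 0.18, adjusted p = 0.14 by edgeR), with a 95% interval from -0.74 to 0.08. One library decides it: the log2 fold change was -0.65 without adult replicate 1 (adjusted p = 0.0010 by edgeR) and 0.01 without adult replicate 2 (adjusted p = 0.96 by edgeR), and scaled to library size alone it was -0.58 (adjusted p = 0.029 by edgeR).

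The gap between the adult libraries is unusual for a gene of this level. Prkaa1 was 1.58-fold higher in adult replicate 2 than in adult replicate 1 after TMM scaling. Of 4517 genes whose mean level was within 2-fold of its own, 0.310% had a larger gap between these libraries, and of all genes tested 3.06% did. The gap between the neonatal libraries was 1.15-fold and was exceeded by 37.3% of all genes. Estimated counts of Prkaa1 were whole numbers in every library. RefSeq lists a pair of Prkaa1 pseudogenes in its rat assembly GRCr8, neither of which had a row here, and whether their reads were counted as Prkaa1 was not tested.

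Prkaa2 (ENSRNOG00000007706), the alpha 2 catalytic subunit that prevails in skeletal muscle and heart, was scarce. It had 11 and 12 counts in the neonatal libraries, with exact 95% Poisson intervals of 5.49 to 19.7 and 6.20 to 21.0 counts, or 0.279 and 0.312 CPM. In adults it had 102 counts (83.2 to 123.8) and 72 counts (56.3 to 90.7), or 2.70 and 1.98 CPM. The counting intervals of the ages did not overlap. Its log2 fold change was -2.73 (standard error 0.43, adjusted p = 0.00057 by edgeR), or 6.65-fold higher in adults with a 95% interval of 3.39 to 13.0, and 1.05% of the genes tested had a larger fold change toward adults.

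Since Prkaa2 reached 1 CPM in adults alone, it could enter the test only by being higher there, so it was also read from a fit with no filter on low counts, where the log2 fold change was -2.76 (adjusted p = 0.00097 by edgeR). It was left out where one adult library was dropped together with the filter. With the genes of the full filter kept, a setting added after the data had been seen, it was -2.48 without adult replicate 1 and -2.95 without adult replicate 2 (adjusted p of 0.0073 and 0.0019 by edgeR).

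Among catalytic subunit reads, Prkaa2 took 0.542% and 0.510% in neonates, and 4.03% and 1.89% in adults, with 95% Wilson intervals of 0.303 to 0.967%, 0.292 to 0.889%, 3.33 to 4.87% and 1.51 to 2.38%. It was thus a small part of the reads in every library. The adult shares lay above the neonatal ones and differed from each other more than counting error allows. The log2 difference of the ratio of Prkaa2 over Prkaa1 was -2.38, with SDs of 0.066 in neonates and 0.79 in adults.

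For the 3 members called, the sequence before the start of transcription is shown, from RefSeq (GRCr8), because Prkaa2 and Prkab2 were higher in adults and Prkab1 in neonates. Each run holds the 250 bases before the RefSeq start, 5′ to 3′ in the direction of the gene, with motif matches in capitals, and other transcripts of these genes may begin elsewhere. Motifs were chosen with the sequences in view and searched on both strands. They were GGGCGG (the GC box), the CCAAT box, ACGTG (the core of hypoxia-inducible factor sites), CACGTG (the E-box, which contains that core), TATAAA (the TATA box) and CGGAAGT (an ETS-type match).
Prkab1 (chr12:46248845-46249094, plus strand): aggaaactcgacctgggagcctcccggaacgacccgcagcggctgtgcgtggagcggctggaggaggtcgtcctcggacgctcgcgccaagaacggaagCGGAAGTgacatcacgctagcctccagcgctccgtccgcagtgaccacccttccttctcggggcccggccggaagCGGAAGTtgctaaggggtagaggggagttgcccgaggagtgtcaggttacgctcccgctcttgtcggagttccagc
Prkab2 (chr2:187946151-187946400, plus strand): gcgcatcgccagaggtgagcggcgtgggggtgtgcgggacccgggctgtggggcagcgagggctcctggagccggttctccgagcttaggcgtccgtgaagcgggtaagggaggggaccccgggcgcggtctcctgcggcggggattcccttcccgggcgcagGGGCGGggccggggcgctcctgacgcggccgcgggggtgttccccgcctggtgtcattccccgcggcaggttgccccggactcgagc
Prkaa2 (chr5:125108325-125108574, minus strand): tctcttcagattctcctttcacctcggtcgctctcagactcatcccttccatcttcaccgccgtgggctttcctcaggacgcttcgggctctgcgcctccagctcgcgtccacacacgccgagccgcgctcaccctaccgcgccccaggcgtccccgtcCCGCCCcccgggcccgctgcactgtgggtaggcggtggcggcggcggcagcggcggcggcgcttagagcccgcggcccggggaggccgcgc

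The windows of Prkab2 and Prkaa2 each held 1 GC box, which 30.5% of 33469 RefSeq promoter windows of this length hold, and none of the other motifs. The Prkab1 window held no GC box but 2 ETS-type matches, found in 5.22% of all windows. All were GC-rich, with 66.0% G and C in Prkab1, 76.0% in Prkab2 and 72.8% in Prkaa2 against a median of 51.2%. No hypoxia-inducible factor core was among these letters. It was found in 16.6% of all windows, and of the members' windows only that of Stk11 held it, with 2 matches. Such matches describe the letters and were not tested as binding sites.

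Prkag2 (ENSRNOG00000009085), a gamma subunit with a long amino-terminal extension and a role in heart, had 14.3 and 14.5 CPM in neonates and 20.1 and 20.0 CPM in adults. Libraries of an age were very close and the ages did not overlap, as in 83.1% of all genes tested from raw CPM. Its log2 fold change was -0.23 (standard error 0.12, adjusted p = 0.12 by edgeR), with a 95% interval from -0.50 to 0.04, so it was not called. Scaled to library size alone it was -0.48 (adjusted p = 0.0070 by edgeR), and its call rests on how the libraries are scaled.

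Prkag3 (ENSRNOG00000017248), the gamma subunit of fast skeletal muscle, had 0 and 10 counts in neonates and 3 and 1 counts in adults. In 3 of the 4 libraries it was at or under the floor of 3 counts, and the floor was 0.0760 CPM in neonate replicate 1. It was not tested, and no fold is given. Prkag3 and Prkaa2 are both known from skeletal muscle, and muscle markers were low: the 10 marker genes with a row summed to 29.8 and 34.6 CPM in neonates and to 55.4 and 62.6 CPM in adults, with Myh8 at 0 in every library. Of the 6 muscle markers tested, 1 (Tnnc2) was higher and 1 (Myh3) lower in neonates. Tnnc2 reached 1 CPM in 2 libraries in neonates alone, the age where it is higher. Myh3, at a log2 fold change of -1.76, carried nearly all of the higher adult sum. Ckm, the creatine kinase of muscle, did not pass the filter, at 0.481 and 0.416 CPM in neonates and at 0.847 and 2.26 CPM in adults. Tnni2, also not tested, ran the other way, at 1.24 and 0.779 CPM in neonates and 0.768 and 0.606 CPM in adults. Actn3, not tested either, overlapped between ages. The part of muscle in the Prkaa2 and Prkab2 differences was not tested.

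Stk11 (ENSRNOG00000014287), which encodes Lkb1, was steady. It had 59.9 and 66.8 CPM in neonates and 64.1 and 68.9 CPM in adults. The ages overlapped in raw CPM, and after TMM scaling they parted, as in 83% of all genes tested. Stk11 then lay at 68.9 ± 3.48 CPM in neonates and 61.1 ± 2.54 CPM in adults (SD, n = 2). Its log2 fold change was 0.17 (standard error 0.088, adjusted p = 0.11 by edgeR), with a 95% interval from -0.03 to 0.37, and -0.07 with library size alone. As a fold of neonate over adult the interval runs from 0.983 to 1.30. The ratio of Stk11 to the catalytic subunits was 1.16 and 1.09 in neonates and 0.957 and 0.658 in adults, where adult replicate 2 is low through Prkaa1.

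**Figure D3:**
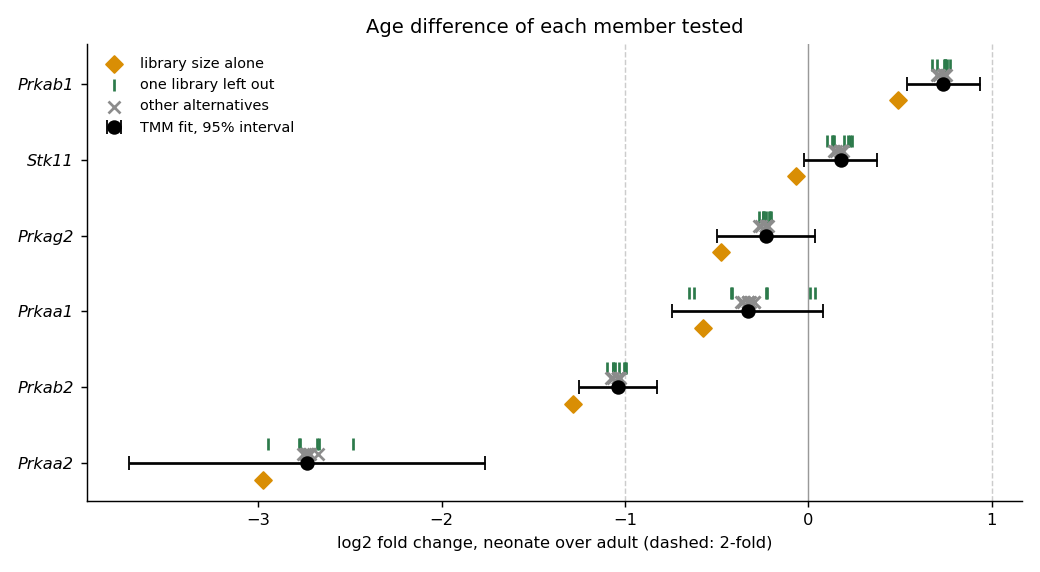
Log2 fold change of neonate over adult for the 6 members tested, with 95% intervals from edgeR after TMM scaling (black), library size alone (diamonds), fits with one library left out (green ticks) and the other alternatives (crosses). Prkab1, Prkab2 and Prkaa2 stay on one side of 0 in every fit shown, Stk11 changes side with library size alone and Prkaa1 does so without adult replicate 2.

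Genes with the most similar levels over the 4 libraries were found by the Euclidean distance between centred log2 CPM, without inference on shared function. For Prkaa1 they were Hic2 (distance 0.042), Rdh5 (0.095) and Kmt2d (0.11), which also had their highest level in adult replicate 2, with Kmt2d at 148, 169, 194 and 283 CPM in the order neonate 1, neonate 2, adult 1 and adult 2. For Prkaa2 they were AABR07025140.1 (0.076), Nos1 (0.12), the neuronal nitric oxide synthase, and Chrna7 (0.18), the alpha 7 nicotinic receptor subunit. Chrna7 had 39.4 and 46.7 CPM in neonates and 321 and 279 CPM in adults. For Stk11 they were Mrps6 (0.014), Sephs1 (0.018) and Mios (0.018), none of which was called.

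Outside the members, 74 genes of the pathway were taken in 8 lists, of which 71 had a row and 68 were tested. In neonates 20 were higher and 22 lower, and 26 were not called, so 61.8% were called against 62.3% of all genes. Their median log2 fold change was -0.05, against -0.0029 for all genes. Past 2-fold, 0 of 68 were higher against 7.68% of all genes, and 8 (11.8%) were lower against 13.2%, which is near the background. Of these 8, Brsk2 and Ppargc1a, named after their values were seen, reached 1 CPM in 2 libraries in adults alone, the age where they are higher. Scaled to library size alone, 5 were higher and 33 lower. Of the genes named below as higher in neonates, Camkk1, Lamtor2, Tsc2 and Crtc2 were still called then, and of the 14 named as lower all 14 were. Up to 2 genes per direction were named from each list, those with the smallest adjusted p, which ranged from 2.2e-05 to 0.021 in edgeR's test. The counts per list below rest on at most 12 genes each. They stand against 31.2% higher and 31.1% lower among all genes tested, and no list was tested as a set.

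**Figure D4:**
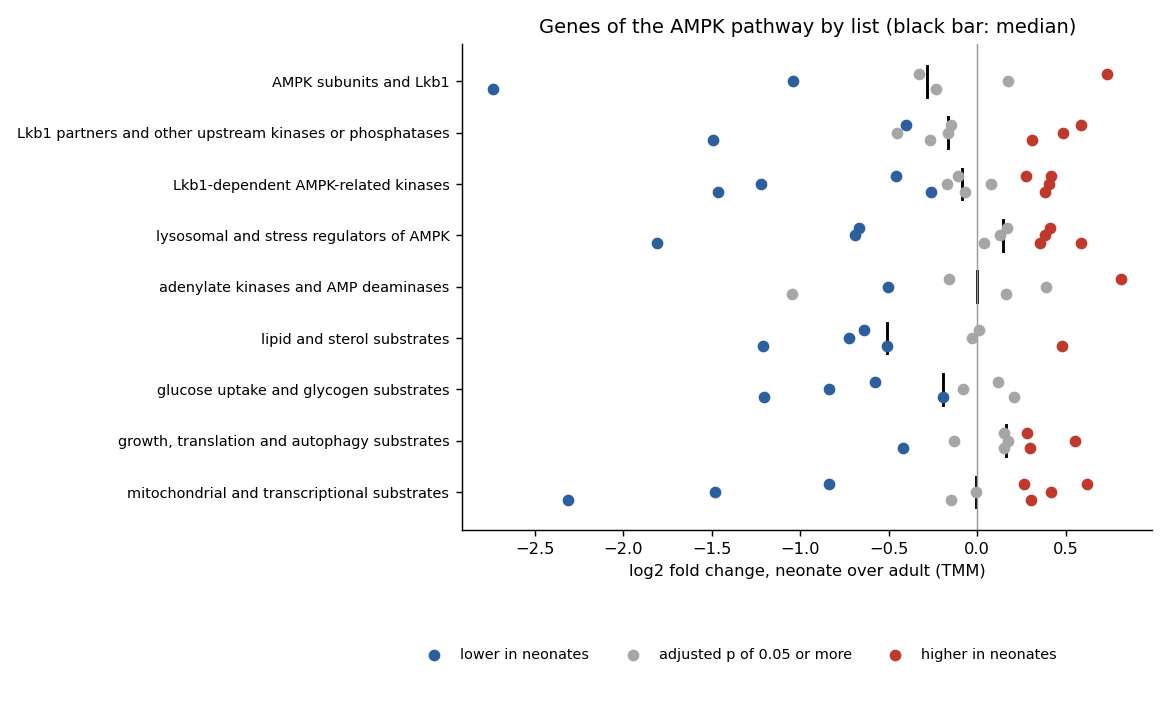
Log2 fold change of neonate over adult (TMM) for the members and for each gene tested in the 8 pathway lists, one point per gene, coloured by call, with the median of each list as a black bar. Medians of the pathway lists lie between -0.19 and 0.16 except for the lipid and sterol substrates at -0.51, and the largest differences, such as Foxo3 at -2.31, are toward adults.

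Of the partners of Lkb1, its other upstream kinases and AMPK phosphatases, 3 of 9 tested were higher and 2 lower in neonates. Strada, the pseudokinase that holds Lkb1 active, was higher in neonates (log2 fold change 0.48), and fell short of a call without adult replicate 2 (0.38, adjusted p = 0.056 by edgeR). Camkk1, a calcium-dependent kinase of the family that can activate AMPK, was higher as well (0.59), with 46.2 and 53.9 CPM in neonates and 39.5 and 39.3 CPM in adults. Ppm1e and Ppm1a, phosphatases that can remove the activating phosphate, were lower in neonates. Ppm1e had 4.46 and 7.38 CPM in neonates and 19.9 and 19.5 CPM in adults (log2 fold change -1.49), and Ppm1a was at -0.40. Cab39, the scaffold of the Lkb1 complex, was at -0.16 and not called. Map3k7 was listed at 0 in all 4 libraries and was not tested.

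Lkb1 also activates kinases related to AMPK, of which 4 of 12 were higher and 4 lower in neonates. Snrk had 20.8 and 27.6 CPM in neonates and 66.1 and 67.6 CPM in adults, which is -1.22 on the log2 scale (SE 0.12, adjusted p = 4.8e-05 by edgeR). Sik1, a salt-inducible kinase, was lower in neonates too (-0.46). The microtubule affinity kinases Mark1 (0.42) and Mark4 (0.41) were higher, and Mark1 lost its call without adult replicate 1 (0.36, adjusted p = 0.054 by edgeR). Brsk1 and Mark3 completed the 4 that were higher and Brsk2 (-1.47) and Mark2 (-0.26) the 4 that were lower, named after their values were seen. Brsk2 was scarce, at 1.34 and 0.961 CPM in neonates and 3.18 and 4.41 CPM in adults.

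Among lysosomal and stress regulators of AMPK, 4 of 10 tested were higher and 3 lower in neonates, and Fnip1 and Axin1 were not analysed here. Subunits of the Ragulator complex, a dock on the lysosome for AMPK and mTORC1, made up all 4 that were higher, led by Lamtor2 (0.58) and Lamtor5 (0.41), while Lamtor1 (0.04) was not called. The 3 that were lower were Fnip2, Sesn1 and Sesn3, named here to complete the count. Fnip2, a partner of folliculin, had 1.95 and 4.34 CPM in neonates and 12.5 and 13.4 CPM in adults (-1.81). Sesn1, a stress-induced sestrin, was at 37.8 and 39.5 CPM in neonates and at 73.8 and 74.1 CPM in adults (-0.69).

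Of the enzymes that make or remove AMP, Ampd3, an AMP deaminase, was lower in neonates (-0.50), with 57.7 and 60.5 CPM against 105.8 and 92.4 CPM in adults. Ampd1, the deaminase of skeletal muscle, did not pass the filter, with 28 and 24 counts in neonates and 3 and 6 in adults.

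Of the lipid and sterol substrates, 1 of 7 was higher and 4 were lower in neonates, with a median of -0.51. Called in either direction were 71.4%, against 62.3% of all genes tested. Acaca, which makes malonyl-CoA for fatty acid synthesis, had 8.31 and 10.2 CPM in neonates and 23.7 and 26.8 CPM in adults, which is -1.21 on the log2 scale (SE 0.14, adjusted p = 0.00010 by edgeR). Acacb, the isoform at the mitochondrial surface, was at 19.2 and 19.9 CPM in neonates and 14.1 and 19.2 CPM in adults (0.48), and it lost its call without adult replicate 1 (0.25, adjusted p = 0.19 by edgeR). Srebf1, a transcription factor of lipid synthesis, was lower in neonates (-0.64). Adipocyte markers moved with this list: their 6 genes summed to 7.69 and 9.25 CPM in neonates and to 28.7 and 46.6 CPM in adults. Of 5 tested, 3 (Adipoq, Plin1 and Cidec) were lower in neonates, and Cidea and Ucp1 were not called. Cidec reached 1 CPM in adults alone, so it could enter the test only by being higher there. The part of adipocytes in the list was not tested.

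Among substrates in glucose uptake and glycogen synthesis, 0 of 7 tested were higher and 4 were lower in neonates by edgeR, and DESeq2 gave 0 and 3. At an unadjusted p under 0.05 edgeR gave 1 higher, Tbc1d1, and without neonate replicate 2 it gave 1 higher and 3 lower. Txnip, which restrains glucose uptake, had 543 and 747 CPM in neonates and 1335 and 1391 CPM in adults (-0.84). Pfkfb3, which makes the activator of phosphofructokinase, had 9.14 and 8.31 CPM in neonates and 22.3 and 25.5 CPM in adults (-1.21). Tbc1d1 and Tbc1d4, which gate glucose transporter traffic, were at 0.21 and -0.08 and not called. Gys2, the liver glycogen synthase, had at most 0.221 CPM and was not tested.

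Of the substrates in growth, translation and autophagy, 3 of 8 were higher and 1 lower in neonates. Tsc2, a brake on mTORC1, was higher (0.56), and Rptor, the raptor subunit of mTORC1, was lower (-0.42), with 24.0 and 26.2 CPM in neonates and 40.1 and 39.3 CPM in adults. Becn1, an autophagy gene, was higher (0.30) and lost its call without neonate replicate 2 or adult replicate 2.

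Mitochondrial and transcriptional substrates had 4 of 9 higher and 3 lower in neonates. Foxo3, a stress response transcription factor, had 4.23 and 3.17 CPM in neonates and 23.3 and 20.3 CPM in adults, which is -2.31 on the log2 scale (SE 0.20, adjusted p = 2.2e-05 by edgeR). The study lists it among other genes from these samples, so its direction here is not independent evidence. Hdac4, a class II histone deacetylase, was lower as well (-0.84). Crtc2, a coactivator of CREB, was higher in neonates (0.62), and Armc10, a mitochondrial protein, was higher (0.42) but lost its call without adult replicate 2.

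Markers of other cells moved with age beside these genes. Smooth muscle and pericyte markers summed to 827 and 850 CPM in neonates and to 1889 and 2013 CPM in adults, mostly through Rgs5. Proliferation markers summed to 523 and 465 CPM in neonates against 141 and 145 CPM in adults, Mki67 among them. Summed mast cell and erythroid markers were each 2.90-fold higher in neonates, with Cpa3 and Cma1 called in the first list and all 4 genes in the second. Lymphocyte markers summed to 2.64 and 4.05 CPM in neonates and to 1.11 and 0.857 CPM in adults. Cd79a, the only one tested, was called higher in neonates. Since Cd79a reached 1 CPM in neonates alone, it could enter the test only by being higher there. Glomus cell markers summed to 7412 and 6535 CPM in neonates and to 10232 and 8142 CPM in adults, a 1.32-fold difference, and of the 11 genes 3 were higher and 3 lower in neonates. Epas1, at 1568 and 1760 CPM in neonates and 4067 and 2982 CPM in adults, carried most of the higher adult sum. The part of cell makeup in the differences of the AMPK genes was not tested.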

How the data were processed

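RNA of pooled rat CBs was sequenced in 4 libraries, 2 per age. Estimated counts, summed to genes, are what the authors deposited: reads were trimmed, mapped by STAR and quantified by Salmon (version 1.5.2 in the submitters' processing notes) on Rnor_6.0, not normalized and not filtered. Counts were rounded. By symbol, 636 genes annotated as other than protein-coding in RefSeq (GRCr8) were removed. The 32247 left include 13665 that matched no annotation and were kept, ribosomal RNA genes among them, so the genes tested are not all protein-coding. Of those left, genes with at least 1 CPM in 2 libraries were tested, with edgeR 4.0.16 (R 4.3.3), TMM and no covariates. By the study's methods the adults were littermates of pups, but which litters a library held is not given in the sources used here, so p-values measure the spread between these libraries. Replicate numbers did not pair the libraries (correlation of deviations -0.02 over 13843 genes).

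Alternatives were DESeq2 1.42.0, limma-voom (limma 3.58.1), other scalings, filters and gene sets, a replicate block and each library left out. On simulated counts of 13843 genes, 194 of 200 changed genes and 11 unchanged ones were called. Only those 200 genes were changed there, whereas 62.3% of the genes tested were called in the real libraries. The simulation therefore cannot show how reliable calls are when so many genes differ, and the effect of scaling is judged from the alternatives alone. Members, lists and motifs were chosen with earlier results of these data known. All members were named, and from each list the 2 genes per direction with the smallest adjusted p; list genes under the filter were named too, and 1 gene that the rule names is not reported here. Markers were named where their summed level changed over 2-fold. Th, the muscle markers, Cab39, Lamtor1, Tbc1d1, Tbc1d4 and the genes that complete a count were named outside this rule, after their values were seen. Of 14 marker lists, glia, endothelium, fibroblast, macrophage and sympathetic neuron are not in the report and differed in summed level by 1.31, 1.15, 1.46 and 1.91-fold toward adults and 1.50-fold toward neonates.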

Additional observations from a re-analysis of the deposited data

How the results depend on the processing

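Prkab1, Prkab2 and Prkaa2 kept direction and call in every alternative that could test them. With a mean of at least 5 CPM Prkaa2 was not tested, leaving 1 member lower in neonates. With library size alone 4 were lower, Stk11 turned to -0.070 and Prkaa1 and Prkag2 were called. Leaving out 1 library gave 1 to 2 members lower (3 without adult replicate 1 and with the genes of the full filter) and 1 higher, with Prkaa1 from -0.65 (without adult replicate 1, called) to 0.0098 without adult replicate 2 (0.036 with the genes of the full filter, adjusted p = 0.96 and 0.85 by edgeR); Prkaa2 could not be tested without an adult library unless the genes of the full filter were kept. Over all genes, library size alone gave 2584 higher in place of 4325, and 704 in place of 1063 with 2-fold. A mean of at least 5 CPM gave 654 higher and 1169 lower past 2-fold, in place of 1063 and 1822, as fewer genes were tested. The pathway lists had 20 higher, 5 with library size alone and 10 to 19 with 1 library left out (10 without adult replicate 2). With the replicate number as a block, Prkaa1 was called at -0.30 (adjusted p = 0.012 by edgeR), giving 3 members lower, and 9093 genes in all in place of 8625. No source ties a replicate number to a litter, so this pairing has no basis in the labels. The ratio of Prkab2 over Prkab1 ran from -1.80 to -1.75 with 1 library left out, of Prkaa2 over Prkaa1 from -2.94 to -1.82 and of Stk11 over the catalytic subunits from 0.24 to 0.78. Depth limits Prkaa2 and Prkag3, whose counts were low.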
